A study of Mus musculus with 12 samples.

Results

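The numbered Zfp genes are mouse genes named for zinc fingers, and 176 of the 337 that the count table lists were expressed strongly enough to be described here, out of 24421 genes in all. They were chosen by their symbol, Zfp followed by a number, and by their measured level, a mean raw count of at least 1000 over all 12 libraries. The choice therefore used the counts themselves, and the high level of the members is not a finding. All 176 also passed the filter on low counts, which kept 15220 genes for testing. Just inside the limit were Zfp688 with a mean raw count of 1026.92, Zfp87 with 1023.5 and Zfp820 with 1004.17. Just outside it were Zfp277 with 992.833, Zfp707 with 982.5 and Zfp39 with 968.583. The mean reached 1000 in each of the 4 groups for 139 members and in only 1 group for 1 member, Zfp692. Members below 1000 in some group were admitted by the groups in which they were high, so differences between groups took part in choosing them. Besides Zfp692, those described below are Zfp52, Zfp57, Zfp248, Zfp316, Zfp369, Zfp422, Zfp428, Zfp462, Zfp521, Zfp651, Zfp668, Zfp688, Zfp703 and Zfp809.

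A C2H2 zinc finger is a short fold around a zinc ion, and arrays of such fingers read DNA, RNA or protein surfaces. The symbol Zfp is a naming class more than a family by descent. Many of its genes encode KRAB zinc finger proteins, which recruit the corepressor Trim28 and the methyltransferase Setdb1 to silence transposable elements and lie in clusters on a few chromosomes. Others are activators at promoters, factors of mesenchymal fate, or proteins of mRNA decay, ribosomes and the spindle.

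The study compared the response to etoposide, which traps topoisomerase II on broken DNA, in mouse embryonic fibroblasts (MEFs) with and without the transcription factors TFEB and TFE3. RNA was sequenced in 4 groups of 3 libraries, called Null control, Null etoposide, DKO control and DKO etoposide. Null MEFs carry no targeted deletion, and DKO MEFs are TFEB/TFE3 double knockout cells made with CRISPR. Etoposide was given at 100 µM for 8 h, and the controls are labelled untreated, while the methods name DMSO. Both genotypes are SV40-immortalized lines, 1 line each, so the genotype and the history of a line cannot be told apart. The labels do not say that the replicates were separate cultures, and the p-values measure only the spread between these libraries.

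The libraries held between 45577023 and 104120871 counts on genes, with a median of 71634158.5. In Null control they held 83970210, 67654759 and 66956083 counts, and in Null etoposide 75454495, 76125320 and 63286195. In DKO control they held 74826945, 104120871 and 66749645 counts, and in DKO etoposide 45577023, 68441372 and 94388705. Levels are given as CPM, counts scaled to a common library total, scaled with TMM factors, which ran from 0.884 to 1.09. The share of read pairs on no annotated gene averaged 23.2% in Null control, 26.2% in Null etoposide, 20.6% in DKO control and 21.9% in DKO etoposide, and its part in the results was not tested.

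The labels were checked first on the targeted genes. Tfeb stood at 38.9, 39.2 and 42.1 CPM in Null control, 11.4, 10.2 and 10.4 in Null etoposide, 4.60, 6.09 and 4.68 in DKO control, and 1.92, 1.61 and 2.20 in DKO etoposide. Every DKO library was below every Null library, with log2 fold changes of -2.94 ± 0.09 (SE, n = 3 against 3) without etoposide and -2.46 ± 0.12 after it. Tfe3 stood at 115, 110 and 114 CPM in Null control, 68.5, 69.6 and 68.1 in Null etoposide, 94.1, 93.1 and 91.0 in DKO control, and 70.7, 71.2 and 63.4 in DKO etoposide. Its DKO libraries were lower without etoposide and overlapped the Null libraries after it, so the amount of Tfe3 RNA does not mark the genotype there, and protein was not measured in these data. The damage-induced genes Cdkn1a and Mdm2 rose by 2.94 ± 0.05 and 3.92 ± 0.04 on the log2 scale in Null MEFs and by 2.60 ± 0.06 and 2.44 ± 0.04 in DKO MEFs.

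Fibroblast identity was checked on 10 markers, of which Vim was the most abundant over all 12 libraries and 1, Lum, averaged under 1 CPM. Their summed level averaged 7122 CPM in Null control, 3991 in Null etoposide, 11743 in DKO control and 5196 in DKO etoposide. Between genotypes 2 markers went against this sum. Thy1 averaged 4.21 CPM in Null control and 0.0365 in DKO control, and 2.12 and 0.129 CPM after etoposide. Vim averaged 1632 CPM in Null etoposide and 801 in DKO etoposide. The other markers averaged higher in DKO MEFs in both conditions. Macrophage markers summed to averages of 1.99, 13.9, 2.12 and 3.92 CPM in the same order, most of it Cd68, and epithelial markers to 2.60, 2.49, 5.35 and 2.06 CPM. Endothelial markers summed to 0.0821, 1.21, 0.0759 and 0.761 CPM and pluripotency markers to 0.894, 0.805, 0.367 and 0.339 CPM. In RNA from whole cultures, fewer cells of a kind and less RNA per cell cannot be told apart.

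The zinc finger label held for most members. In the coding sequences of the GENCODE annotation, 172 members had at least 1 C2H2 finger by pattern, with a median of 10 and a maximum of 37 in Zfp142. The other 4 were Zfp36, a tristetraprolin of the CCCH type that drives decay of AU-rich mRNAs, Zfp330, Zfp365 and Zfp703. A KRAB-like pattern was found in 74 members and not in 102. The proteins ran from 76 to 2698 residues with a median of 599, and the genes from 1.59 to 462 kb with a median of 19.3 kb. Chromosome 7 held 40 members, of which 18 were KRAB-like, chromosome 17 held 24, of which 19 were KRAB-like, and chromosome 8 held 16, of which 9 were.

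Levels per kb of exon ran from 1.22 CPM in Zfp652 to 45.5 CPM in Zfp740, with a median of 6.30 CPM. After Zfp740, the highest per length were Zfp598, which acts on collided ribosomes, with 38.2 CPM per kb and Zfp207, a spindle protein that loads Bub3, with 37.4 CPM per kb. Exons of 51 members overlapped a gene on the opposite strand and exons of 10 a gene on the same strand. The strand setting of the counting is not stated, so the counts of those members may hold reads of a neighbour. Stretches shared with transcripts of other genes were counted on both strands. Genes that overlap a member were included, so this count partly repeats the overlaps. No stretch of 75 bases, a read length, was shared with the transcripts of another gene by 81 members, and 20 shared over 10% of theirs. Zfp90 with 75.8%, all with Gm26786, and Zfp593 with 61.5%, all with E130218I03Rik, shared the most.

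As a whole the members took a small part of each library. Their share of gene counts averaged 0.808% in Null control, 0.876% in Null etoposide, 0.803% in DKO control and 0.921% in DKO etoposide, and every etoposide library was above every control library. Their summed level after TMM scaling went the other way, from an average of 8366 CPM in Null control to 8072 in Null etoposide and from 9041 in DKO control to 8576 in DKO etoposide. The direction of the members' sum after etoposide thus turns with the scaling.

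**Figure D1:**
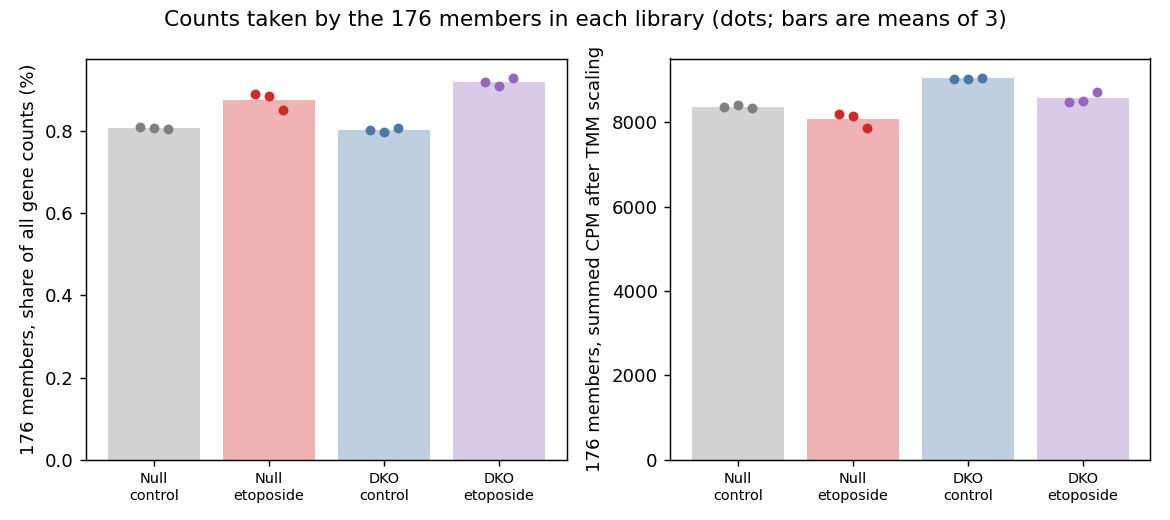
Share of all gene counts in percent and summed CPM after TMM scaling of the 176 members in each library, with bars at the mean of 3 libraries. After etoposide the share rose from 0.808% to 0.876% in Null MEFs and from 0.803% to 0.921% in DKO MEFs, while the scaled sum fell from 8366 to 8072 CPM and from 9041 to 8576 CPM.

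Scaling was therefore followed for each comparison. Without TMM factors, by library size alone, the median change over the 15220 tested genes, in log2, moved from 0.07 to 0.23 for etoposide in Null MEFs, from 0.14 to 0.41 in DKO MEFs, and from -0.02 to -0.14 for DKO against Null MEFs without etoposide. Relative to the median of all genes, the members' median was -0.11 for etoposide in Null MEFs, -0.19 in DKO MEFs, 0.14 for DKO against Null MEFs without etoposide and 0.13 after it. By library size alone these relative values were -0.11, -0.19, 0.13 and 0.13, and with DESeq2 size factors -0.11, -0.19, 0.14 and 0.13. Against the median of the other genes with a mean raw count of at least 1000, the members' median lay at 0.12, 0.00, 0.08 and 0.00 instead. Its side thus depends on the reference for etoposide in Null MEFs. For DKO against Null MEFs without etoposide it lay above both references. Library size alone shifts every member's log2 fold change by about 0.168 for etoposide in Null MEFs, 0.273 in DKO MEFs, -0.121 and -0.0158 for DKO against Null MEFs without and after etoposide and 0.105 for the interaction, which moves many of the small values below by over 1.5 times.

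The first comparison asks what 8 h of etoposide did in Null MEFs. At an adjusted p under 0.05 in edgeR's quasi-likelihood test, 58 members or 33% rose. The share was 42.3% of all genes tested and 30.9% of the other genes with a mean raw count of at least 1000. The number that fell was 83 or 47.2%, against 37.2% of all genes and 54% of those other genes. Scaling by library size alone gave a split of 88 higher and 49 lower, so the side with more members turns with the scaling, and the other genes at that count moved from 2665 higher and 4651 lower to 3625 and 3631. The members' median log2 fold change was -0.05, and 79% of members stayed within 1.5-fold. Of the 8619 other genes at that count, 535 or 6.21% rose and 907 or 10.5% fell by at least 2-fold. Such changes were seen for 11 of the 176 members upward and 8 downward. Among the 139 members with a mean raw count of at least 1000 in each group, they were 4 upward and 6 downward, and the median was -0.14, a distance from 0 below the 0.168 by which library size alone shifts it.

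Zfp365, known as a gene that p53 induces after DNA damage, rose the most. It lies on chr10:67886103-67912662 of GRCm38, minus strand, and stood at 39.7, 40.5 and 39.6 CPM in Null control, 319, 309 and 311 in Null etoposide, 23.5, 22.5 and 23.4 in DKO control, and 127, 134 and 134 in DKO etoposide. All etoposide libraries were far above all control libraries, and in each condition every DKO library was below every Null library. The rise in Null MEFs was 2.97 ± 0.04 on the log2 scale (adjusted p = 9.0e-20), a fold of 7.83.

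Next came Zfp219, at 20.2, 18.4 and 20.8 CPM in Null control, 91.4, 81.7 and 85.5 in Null etoposide, 20.6, 18.5 and 17.3 in DKO control, and 40.3, 37.8 and 39.3 in DKO etoposide. The control libraries of the genotypes overlapped, and the etoposide libraries were higher in both, most in Null MEFs, where the rise was 2.12 ± 0.06 (adjusted p = 2.4e-15). Its exons overlap Arhgef40 and Tmem253 on the other strand, so reads of these genes may be among its counts. The KRAB-like Zfp248 rose by 1.88 ± 0.08, from 6.46, 6.96 and 8.70 CPM to 27.5, 27.5 and 25.7 CPM. The KRAB-like Zfp688, which its etoposide libraries brought just inside the limit that chose members, rose by 1.87 ± 0.07, from 6.57, 7.24 and 7.40 CPM to 25.8, 26.5 and 25.3 CPM. In neither gene did the Null control and Null etoposide libraries overlap.

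Zfp521, a partner of Ebf factors that restrains adipocyte fate, fell the most. It stood at 22.5, 22.3 and 20.9 CPM in Null control, 4.89, 5.97 and 6.36 in Null etoposide, 39.1, 36.8 and 36.3 in DKO control, and 6.50, 5.52 and 6.54 in DKO etoposide. Control libraries were high and etoposide libraries low in both genotypes, and only the etoposide libraries overlapped between genotypes. The change in Null MEFs was -1.94 ± 0.08 (adjusted p = 4.2e-13). Zfp131 stood at 148, 152 and 147 CPM in Null control, 52.6, 54.0 and 49.5 in Null etoposide, 123, 121 and 119 in DKO control, and 64.5, 61.9 and 68.1 in DKO etoposide. Its 4 groups did not overlap, and its change in Null MEFs was -1.52 ± 0.04 (adjusted p = 8.3e-16).

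The other large falls in Null MEFs were in Zfp827, a telomere chromatin factor, with -1.43 ± 0.05, and Zfp407 with -1.26 ± 0.04. Zfp91, which encodes an E3 ubiquitin ligase, fell from 207, 212 and 212 CPM to 99.7, 96.1 and 95.6 CPM, a change of -1.11 ± 0.03. Its control libraries were all at least 2-fold above its etoposide libraries. Its exons overlap Cntf on the same strand, and 7.91% of its stretches of 75 bases were shared with other transcripts. Of these 794 shared stretches, 774 were shared with Cntf.

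**Figure D2:**
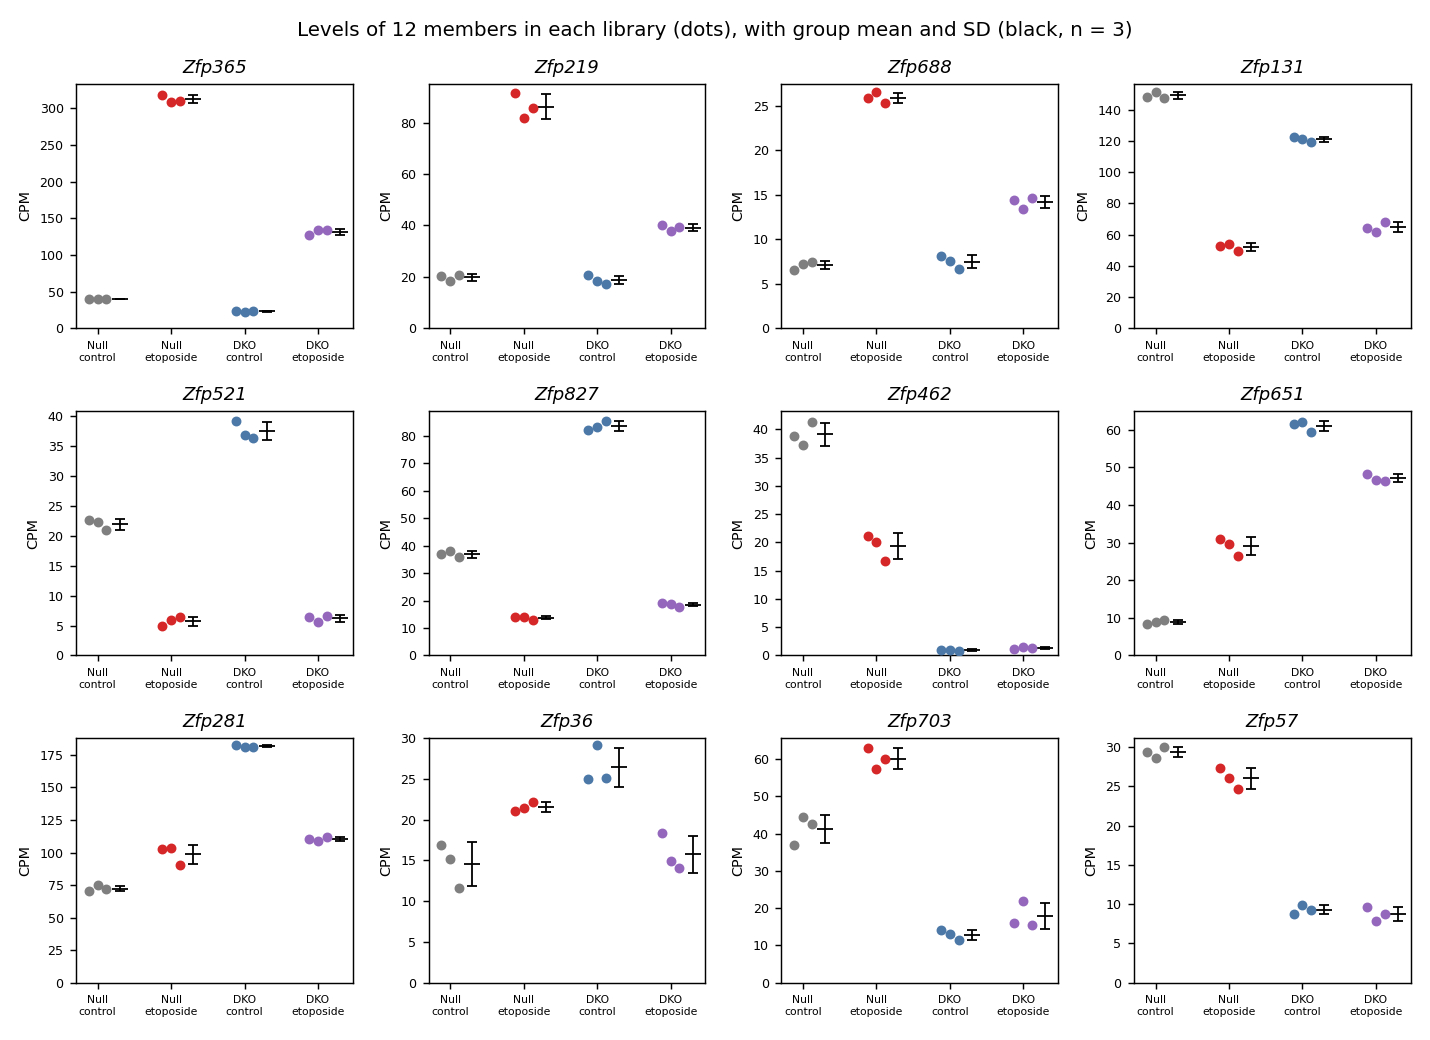
Level in CPM of 12 members in each library, by group, with the mean and SD of 3 libraries in black. Zfp365 rose from at most 40.5 CPM to at least 309 CPM in Null MEFs, Zfp521 fell in both genotypes, and Zfp462 was at 1.42 CPM or less in every DKO library.

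The same question was asked in DKO MEFs. Here 65 members or 36.9% rose, against 43.7% of all genes tested and 36.6% of the other genes with a mean raw count of at least 1000. The number that fell was 71 or 40.3%, against 31.5% and 45.2%. By library size alone 111 members were higher and 34 lower, and 5068 and 2403 of those other genes. Changes of at least 2-fold were fewer than in Null MEFs, with 3 of the 176 members upward and 2 downward. Among the 139 members that reached 1000 in each group they were 2 and 1. Of the 8619 other genes at that count, 205 or 2.38% rose and 825 or 9.57% fell that much. The members' median was -0.05, and 83.5% stayed within 1.5-fold.

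Zfp365 again led, with a rise of 2.51 ± 0.04 (adjusted p = 1.1e-18), followed by Zfp219 with 1.06 ± 0.06. Zfp428 stood at 16.0, 16.2 and 17.4 CPM in Null control, 16.2, 15.8 and 17.3 in Null etoposide, 8.42, 8.21 and 7.65 in DKO control, and 16.6, 16.7 and 16.4 in DKO etoposide. Its DKO control libraries were the low ones, and the other 3 groups overlapped. It rose by 1.03 ± 0.06 in DKO MEFs (adjusted p = 1.1e-10), while its change in Null MEFs was -0.01 ± 0.06. Zfp688 rose by 0.92 ± 0.07 and Zfp367 by 0.90 ± 0.04, the latter from 128, 126 and 125 CPM to 227, 231 and 250 CPM. Zfp367 rose by a like amount in Null MEFs, 0.98 ± 0.04, from 110, 109 and 106 CPM to 213, 213 and 217 CPM.

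The falls in DKO MEFs were led by Zfp521 with -2.60 ± 0.08 (adjusted p = 7.5e-15) and Zfp827 with -2.18 ± 0.05. Zfp827 stood at 36.9, 38.2 and 35.7 CPM in Null control, 14.1, 14.0 and 13.1 in Null etoposide, 82.0, 83.1 and 85.5 in DKO control, and 18.9, 18.6 and 17.8 in DKO etoposide. None of its groups overlapped, and its level in DKO control was the highest. Zfp568, a KRAB factor that represses a placental Igf2 transcript, fell by 0.94 on the log2 scale, from 88.9, 90.3 and 86.1 CPM to 47.5, 42.4 and 48.8 CPM. Zfp623 fell by 0.91 and Zfp131 by 0.90 on that scale.

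The responses of the members in the 2 genotypes share no libraries and can be set side by side. Of the 176 members, 42 rose in both, 55 fell in both, 12 passed the threshold in neither, and 16 moved in opposite directions. These were 23.9%, 31.2%, 6.82% and 9.09%, against 22.2%, 37.3%, 4.84% and 12.1% of the other genes with a mean raw count of at least 1000. Across members, the fold changes had a Pearson r of 0.72 and a Spearman rho of 0.65, as a description over 176 genes that share the depth and scaling of their libraries. Those other 8619 genes had 0.72 and 0.71.

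KRAB-like members and the rest were counted apart. In Null MEFs 30 or 40.5% of KRAB-like members rose and 28 or 37.8% fell, with a median of 0.04, and 28 or 27.5% of the others rose and 55 or 53.9% fell, with a median of -0.14, against 30.9% and 54% of the other genes with a mean raw count of at least 1000. In DKO MEFs 30 or 40.5% of KRAB-like members rose and 20 or 27% fell, with a median of 0.01, and among the others 35 or 34.3% rose and 51 or 50% fell, with a median of -0.11, against 36.6% and 45.2%. With library size alone the KRAB-like splits became 42 higher and 17 lower in Null MEFs and 53 and 12 in DKO MEFs, and those of the others 46 and 32 in Null MEFs and 58 and 22 in DKO MEFs, so the direction of the others turns with the scaling. Relative to the median of all genes, the KRAB-like median was -0.02 in Null MEFs and the other members' median -0.21, and these 2 values were also -0.02 and -0.21 with library size alone. Against the median of the other genes at that count they were 0.21 and 0.02 instead. None of the 74 KRAB-like members fell by 2-fold or more in either genotype, against 10.5% of the other genes at that count in Null MEFs and 9.57% in DKO MEFs. In Null MEFs 6 of the 74 rose that much, against 6.21% of those other genes. No test compared the KRAB-like members with the rest.

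**Figure D3:**
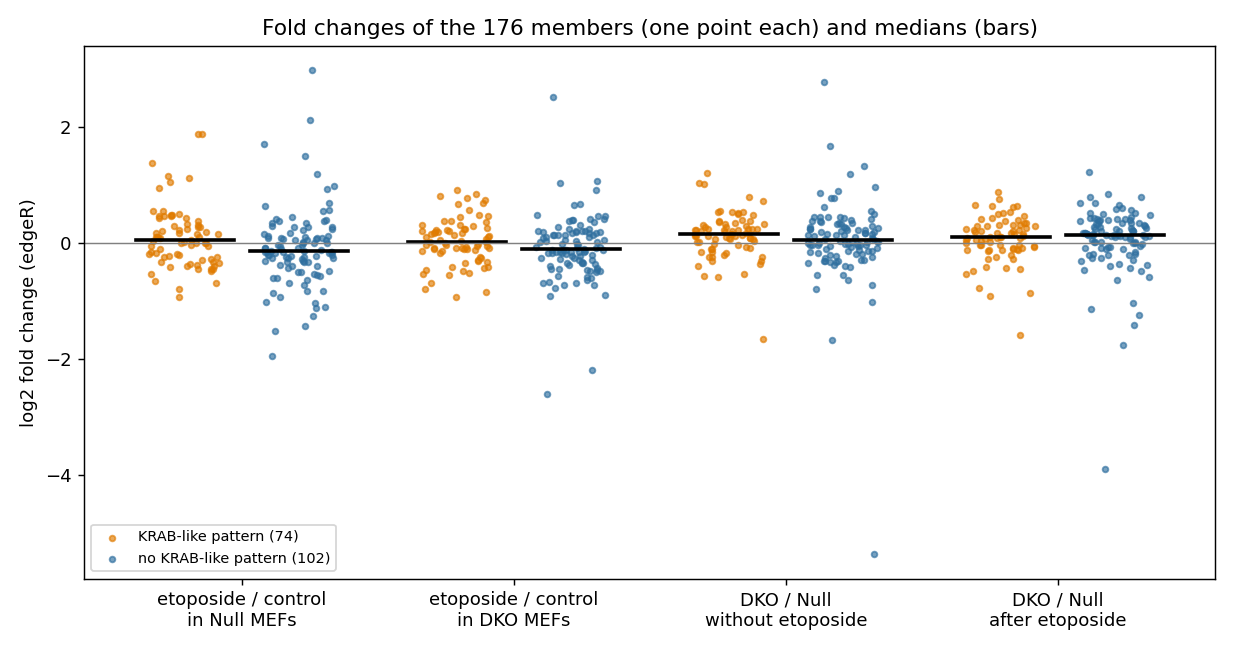
Log2 fold change of each member in 4 comparisons, split by a KRAB-like pattern, with bars at the medians. After etoposide in Null MEFs the medians were 0.04 for the 74 KRAB-like members and -0.14 for the other 102, and with library size alone the latter turned to 0.03.

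The long members were counted apart. Of the 13 members with a gene length of over 100 kb, 0 rose and 12 fell in Null MEFs by edgeR's test, with a median of -0.94, and 2 rose and 9 fell in DKO MEFs, with a median of -0.46. By library size alone 1 rose and 7 fell in Null MEFs, and 5 rose and 7 fell in DKO MEFs. The 2 rises in DKO MEFs became 0 without DKO control 1 or 2 or DKO etoposide 1, and 1 without Null control 1, 2 or 3, DKO control 3, Null etoposide 2 or DKO etoposide 2 or 3. Of the other 1053 genes of that length with a mean raw count of at least 1000, 112 rose and 883 fell in Null MEFs and 99 rose and 849 fell in DKO MEFs, the latter 219 and 676 with library size alone, and no test compared them with the members. Besides Zfp521, Zfp827 and Zfp407, the long members included Zfp148, a factor of GC-rich promoters, which changed by -1.03 ± 0.03 in Null MEFs and -0.73 ± 0.03 in DKO MEFs. Zfp609 changed by -1.11 and -0.68 and Zfp704 by -0.94 and -0.46. Only Zfp943 among the long members missed the threshold in Null MEFs, with -0.01, or 0.16 and past it with library size alone.

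Length was also described across all 176 members. Spearman's rho of gene length and fold change was -0.20 for members in Null MEFs and -0.10 in DKO MEFs, against -0.37 and -0.36 for 8581 other genes. These are descriptions across genes, which share libraries and are not independent replicates, and the difference between the sets was not tested. Among the 32 members under 10 kb, 13 rose and 11 fell in each genotype, or 20 and 5 in Null MEFs and 21 and 5 in DKO MEFs with library size alone, and 15 and 6 and 13 and 13 with DESeq2 size factors. These 13 and 11 were 40.6% and 34.4%, against 43.7% and 36.8% of 1950 other genes of that length and count in Null MEFs and 50.1% and 29.3% in DKO MEFs. The number of C2H2 fingers had a rho of -0.06 in Null MEFs and -0.04 in DKO MEFs.

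**Figure D4:**
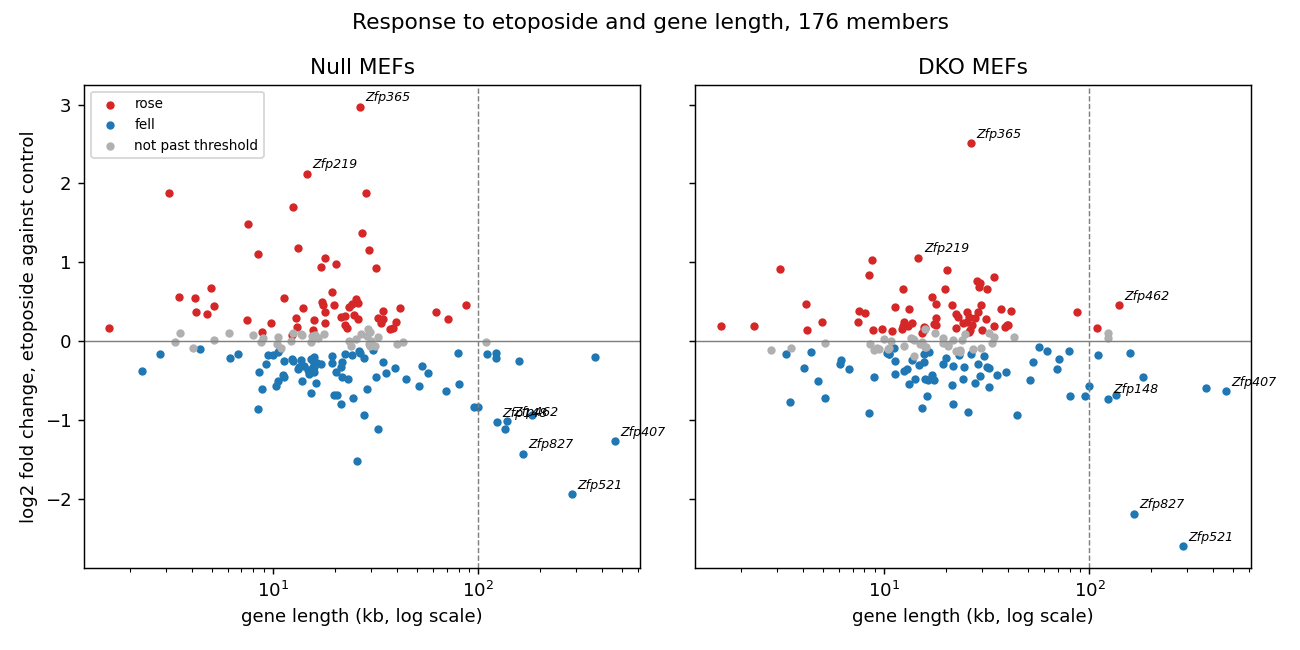
Gene length in kb on a log scale against the log2 fold change after etoposide for the 176 members in Null and DKO MEFs, coloured by the call at an adjusted p of 0.05. Of the 13 members to the right of the dashed line at 100 kb, 12 fell in Null MEFs and 9 in DKO MEFs, and 7 in each with library size alone.

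The next comparison asks how DKO MEFs differed from Null MEFs without etoposide. It shares its control libraries with the etoposide comparisons. By edgeR's test 80 of the 176 members were higher in DKO MEFs and 43 were lower. Of all genes 33.3% were higher and 33.4% lower. Of the other genes with a mean raw count of at least 1000, 42.7% were higher and 35.7% lower. Scaled by library size alone, 58 members were higher and 68 lower, and 2786 and 4106 of the other genes at that count, so both directions turn. The members' median was 0.11, and 87.5% were within 1.5-fold. Of the 8619 other genes at that count, 439 or 5.09% lay 2-fold or more up and 245 or 2.84% down. Of the 176 members, 7 lay so far up and 4 so far down. Only 2 of those up and 0 of those down were among the 139 members that reached 1000 in each group.

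Zfp462, a large factor of chromatin in pluripotent and neural cells, was nearly lost from DKO MEFs. It lies on chr4:54945048-55083563, plus strand, and stood at 38.8, 37.3 and 41.3 CPM in Null control, 21.2, 20.1 and 16.8 in Null etoposide, 1.04, 1.02 and 0.755 in DKO control, and 1.19, 1.42 and 1.29 in DKO etoposide. Every DKO library was at least 10 times below every Null library, and only the Null groups reached a mean raw count of 1000, so this difference took part in admitting it. The difference was -5.36 ± 0.12 without etoposide (adjusted p = 9.0e-17) and -3.89 ± 0.12 after it. With 1 line of each genotype, a difference of the knockout and a difference between lines cannot be told apart.

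Zfp703, a corepressor of the NET family, and Zfp57, a KRAB factor that maintains genomic imprints, were also low in DKO MEFs. Zfp703 stood at 37.0, 44.4 and 42.5 CPM in Null control, 63.1, 57.4 and 59.9 in Null etoposide, 14.1, 13.1 and 11.4 in DKO control, and 16.1, 22.0 and 15.6 in DKO etoposide. Zfp57 stood at 29.4, 28.7 and 30.0 CPM in Null control, 27.3, 26.1 and 24.7 in Null etoposide, 8.69, 9.85 and 9.24 in DKO control, and 9.61, 7.81 and 8.80 in DKO etoposide. In both genes all DKO libraries were below all Null libraries, and the differences without etoposide were -1.68 ± 0.11 and -1.66 ± 0.07. Zfp428 differed by -1.03 ± 0.06 and Zfp365 by -0.79 ± 0.04.

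The highest difference upward was in Zfp651, also called Zbtb47. It lies on chr9:121759330-121771742, plus strand, and stood at 8.41, 8.97 and 9.53 CPM in Null control, 31.0, 29.6 and 26.4 in Null etoposide, 61.4, 62.0 and 59.4 in DKO control, and 48.2, 46.5 and 46.3 in DKO etoposide. None of the groups overlapped, and the difference between genotypes was 2.77 ± 0.06 without etoposide (adjusted p = 1.2e-16) and 0.69 ± 0.05 after it. Its exons overlap E530011L22Rik on the other strand, whose reads may be among its counts. Zfp422 stood at 10.7, 9.37 and 8.56 CPM in Null control, 15.2, 15.4 and 15.6 in Null etoposide, 31.8, 30.5 and 28.6 in DKO control, and 38.7, 33.3 and 36.1 in DKO etoposide. All its DKO libraries were above all its Null libraries, by 1.66 ± 0.08 without etoposide. Zfp281 was higher by 1.33 ± 0.04, the KRAB-like Zfp52 by 1.20 ± 0.07 and Zfp827 by 1.18 ± 0.04.

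After etoposide 88 of the 176 members were higher in DKO than in Null MEFs and 40 were lower. Of all genes 37.5% were higher and 36.6% lower. Of the other genes with a mean raw count of at least 1000, 51.1% were higher and 30.8% lower. With DESeq2 size factors the split of the members was 70 higher and 51 lower. The members' median was 0.12, and 85.2% were within 1.5-fold. Of the 8619 other genes at that count, 302 or 3.5% lay 2-fold or more up and 441 or 5.12% down. Of the 176 members, 1, Zfp422, lay so far up and 7 so far down. Among the 139 members that reached 1000 in each group, 0 lay so far up and 2 so far down.

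Zfp422 led upward with 1.22 ± 0.07 (adjusted p = 3.6e-11), followed by the KRAB-like Zfp316 with 0.87 ± 0.07 and Zfp704 with 0.85 ± 0.04. Zfp275 was higher by 0.79 ± 0.03, from 162, 161 and 161 CPM in Null etoposide to 270, 284 and 284 in DKO etoposide, and Zfp629 was higher by 0.79 ± 0.05. Downward, Zfp462 was followed by Zfp703 with -1.75 ± 0.10 and Zfp57 with -1.58 ± 0.07. Zfp692 stood at 11.1, 12 and 12.2 CPM in Null control, 36.0, 32.7 and 30.1 in Null etoposide, 9.19, 10.7 and 8.17 in DKO control, and 12.6, 12.3 and 12.3 in DKO etoposide. Only its Null etoposide libraries were high, and only that group reached a mean raw count of 1000 and so admitted it. Its difference between genotypes was -1.41 ± 0.08 after etoposide. Zfp365 differed by -1.25 ± 0.03.

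The comparisons of genotype without and after etoposide share no libraries. In both, 53 members were higher in DKO MEFs and 21 were lower, 18 changed sides, and 17 passed the threshold in neither, or 30.1%, 11.9%, 10.2% and 9.66%, against 30.9%, 18.1%, 16.7% and 5.38% of the other genes with a mean raw count of at least 1000. Across members the differences had a Pearson r of 0.72 and a Spearman rho of 0.51, against 0.66 and 0.51 for 8619 other genes, as a description across genes. Among KRAB-like members 38 or 51.4% were higher and 13 or 17.6% lower without etoposide, against 42.7% and 35.7% of those other genes, and 32 or 43.2% and 16 or 21.6% after it, against 51.1% and 30.8%. With library size alone the first split was 26 higher and 21 lower. The second was 26 higher and 23 lower with DESeq2 size factors, and 26 and 25 with a filter of a mean of at least 1 CPM.

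The interaction asks whether etoposide acted differently in the genotypes, and it was tested in the same edgeR model with all 12 libraries. It was above 0, a response in DKO MEFs that lay above that in Null MEFs, for 55 of the 176 members, and below 0 for 51. Of all genes it was above 0 for 29.6% and below 0 for 24.4%. Of the other genes with a mean raw count of at least 1000, it was above 0 for 40.5% and below 0 for 28.8%. With DESeq2 size factors the larger side turned, with 45 above and 59 below, and with library size alone the split was 71 and 34. Of the other genes at that count, 3490 lay above and 2478 below 0, or 2907 and 2852 and 4490 and 1971 under those scalings. Of the 106 members past the threshold, 79 kept their direction and stayed past it under all 3 scalings. The members' median was -0.00, and 88.6% were within 1.5-fold.

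Zfp651 had the lowest interaction, -2.08 ± 0.08 (adjusted p = 1.4e-12). It rose by 1.70 ± 0.06 in Null MEFs and changed by -0.38 ± 0.05 in DKO MEFs, from a level without etoposide that was already higher than in any Null library. The KRAB-like Zfp52 stood at 9.09, 10.7 and 11.5 CPM in Null control, 28.3, 27.3 and 25.2 in Null etoposide, 22.8, 24.5 and 24.5 in DKO control, and 22.5, 22.7 and 21.9 in DKO etoposide. Its Null control libraries were the low ones, and it rose by 1.38 ± 0.07 in Null MEFs against -0.10 ± 0.07 in DKO MEFs. Zfp248 had an interaction of -1.11 ± 0.12, Zfp692 of -1.10 ± 0.12 and Zfp219 of -1.06 ± 0.09.

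Zfp36 stood at 16.9, 15.2 and 11.6 CPM in Null control, 21.1, 21.4 and 22.2 in Null etoposide, 25.0, 29.2 and 25.1 in DKO control, and 18.3, 15.0 and 14.0 in DKO etoposide. Etoposide libraries were above the controls in Null MEFs and below them in DKO MEFs, without overlap, with changes of 0.56 ± 0.11 and -0.77 ± 0.11 and an interaction of -1.33 ± 0.15 (adjusted p = 1.2e-06). Zfp281, a factor of GC-rich promoters in pluripotent cells, stood at 70.7, 74.7 and 71.6 CPM in Null control, 103, 103 and 90.4 in Null etoposide, 182, 181 and 181 in DKO control, and 110, 109 and 112 in DKO etoposide. It likewise rose in Null MEFs, by 0.45 ± 0.04, and fell in DKO MEFs, with a change of -0.72 ± 0.04 and an interaction of -1.17 ± 0.06 (adjusted p = 6.0e-11). The KRAB-like Zfp9 rose by 0.49 ± 0.04 and changed by -0.49 ± 0.04 in DKO MEFs, and Zfp637 by 0.34 ± 0.06 and -0.51 ± 0.06. Zfp593 went the other way, with -0.37 ± 0.05 in Null MEFs and 0.19 ± 0.05 in DKO MEFs, and it is the member with 61.5% of its stretches shared with a transcript on the other strand.

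In all, 16 members passed the threshold in opposite directions in the 2 genotypes, and the interaction passed it for each of them. Those higher in Null and lower in DKO MEFs were Zfp36, Zfp64, Zfp260, Zfp281, Zfp637, Zfp651, Zfp654 and Zfp9, and those lower in Null and higher in DKO MEFs were Zfp207, Zfp276, Zfp317, Zfp462, Zfp593, Zfp597, Zfp598 and Zfp672. Of the 16, 5 kept opposite calls in all 20 alternative settings, namely Zfp36, Zfp281, Zfp593, Zfp637 and Zfp9, and 6 kept them with library size alone. The rise of Zfp462 in DKO MEFs, 0.46 ± 0.20 (adjusted p = 0.046), rested on about 1 CPM. It kept its call in 8 of 20 settings and missed the threshold with DESeq2 size factors (0.44), with no filter (0.42), and without any of 10 libraries. These were, by replicate number, Null control 1, 2 and 3 (0.45 each), DKO control 1, 2 and 3 (0.49, 0.50 and 0.35), Null etoposide 2 (0.45) and DKO etoposide 1, 2 and 3 (0.48, 0.38 and 0.47).

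Among the highest interactions, Zfp462 with 1.47 ± 0.21 was followed by Zfp428 with 1.04 ± 0.09. Zfp407, at 0.63 ± 0.06, stood at 58.1, 56.9 and 59.5 CPM in Null control, 25.9, 23.6 and 23.2 in Null etoposide, 46.6, 45.7 and 46.5 in DKO control, and 29.4, 30.2 and 29.9 in DKO etoposide. It fell in both genotypes without overlap, more in Null MEFs. The KRAB-like Zfp945 had an interaction of 0.62 ± 0.12 and Zfp131 of 0.62 ± 0.06. For Zfp521 and Zfp827, which fell more in DKO MEFs from higher control levels, the interactions were -0.66 ± 0.12 and -0.76 ± 0.07.

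**Figure D5:**
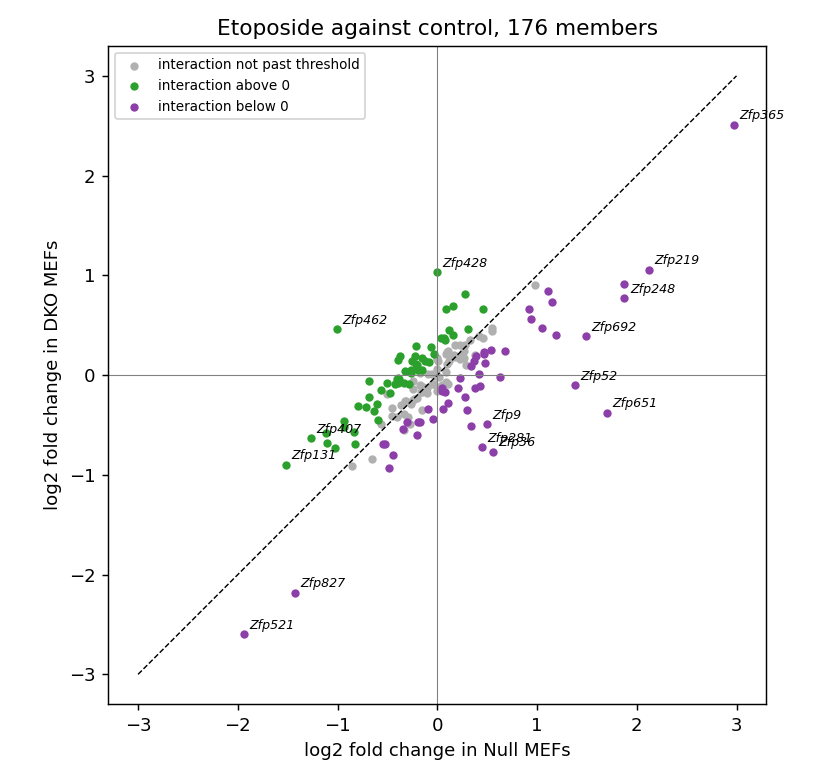
Log2 fold change after etoposide of the 176 members in Null MEFs (horizontal) and DKO MEFs (vertical), coloured by the interaction, with equal change on the dashed line. Zfp651 and Zfp52 lie far below the line, with 1.70 and 1.38 in Null MEFs against -0.38 and -0.10 in DKO MEFs, and Zfp428 lies above it with -0.01 and 1.03.

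By role, 5 members have links to DNA damage, of which 1 rose and 2 fell in Null MEFs and 2 rose and 2 fell in DKO MEFs, or 3 and 2 and 3 and 1 with library size alone. The rises in Null MEFs were also 2 with DESeq2 size factors or without DKO etoposide 3. For this list and those that follow, 30.9% of the other genes with a mean raw count of at least 1000 rose and 54% fell in Null MEFs, and 36.6% rose and 45.2% fell in DKO MEFs. Besides Zfp365 and Zfp827, Zfp451 is a SUMO ligase that helps Tdp2 at trapped topoisomerase II, and it changed by -0.32 ± 0.05 in Null MEFs and -0.26 ± 0.05 in DKO MEFs. The latter turned to 0.01 with library size alone. In DKO MEFs Zfp451 was higher than in Null MEFs by 0.27 ± 0.05 without etoposide and 0.33 ± 0.05 after it. Zfp346, which binds double-stranded RNA, stood at 26.8, 29.0 and 29.1 CPM in Null control, 30.4, 31.1 and 30.2 in Null etoposide, 16.5, 17.1 and 17.7 in DKO control, and 24.3, 24.3 and 22.0 in DKO etoposide. Its DKO control libraries were the lowest, and it rose by 0.46 ± 0.06 in DKO MEFs. Zfp668 passed the threshold after etoposide in neither genotype, but did so with 0.25 and 0.30 under library size alone and with 0.17 in Null MEFs under a filter of 1 mean CPM.

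Of the 13 chromatin and promoter factors, 2 rose and 10 fell after etoposide in Null MEFs, and 3 rose and 8 fell in DKO MEFs. The counts became 3 and 7, and 5 and 5, under library size alone. Zfp592, Zfp687 and Zfp532 encode subunits of a shared complex, and the first 2 changed by -0.57 ± 0.04 and -0.60 ± 0.04 in Null MEFs. For Zfp532 the change was -0.16 ± 0.06, and without Null etoposide replicate 3 it missed the threshold with -0.11, with DESeq2 size factors with -0.12 and with a filter of 1 mean CPM with -0.08, while with library size alone it turned to 0.00. Zfp644, a partner of the methyltransferases G9a and GLP, fell from 178, 175 and 160 CPM to 119, 115 and 118 CPM in Null MEFs and from 269, 253 and 268 to 165, 155 and 169 CPM in DKO MEFs. Its control libraries were above its etoposide libraries in both genotypes. Zfp384 and Zfp335 changed by -0.61 ± 0.05 and -0.68 ± 0.07 in Null MEFs, and Zfp143, an activator of many promoters, by -0.26 ± 0.06. Zfp652 changed by -0.21 ± 0.05 there. Zfp143 and Zfp652 missed the threshold with library size alone, at -0.09 and -0.04.

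The rises among these factors included that of Zfp462 in DKO MEFs, which kept its call in 8 of 20 settings. The others were in Zfp217, a corepressor amplified in cancers, with 0.24 ± 0.05 in Null MEFs and 0.21 ± 0.05 in DKO MEFs, and in Zfp281 in Null MEFs and Zfp410 in DKO MEFs. Zfp410, an activator of the remodeller gene Chd4, rose by 0.21 ± 0.04 in DKO MEFs and by 0.09 ± 0.04 in Null MEFs, where it missed the threshold but passed it with 0.14 under DESeq2 size factors and 0.26 with library size alone. After etoposide 10 of the 13 factors were higher in DKO than in Null MEFs and 3 were lower, against 51.1% and 30.8% of the other genes with a mean raw count of at least 1000, and with DESeq2 size factors 8 were higher and 3 lower. The calls lost were those of Zfp410 (0.04) and Zfp687 (0.07). Zfp410 kept its call in 8 of 20 settings and missed it without DKO control 1 or 2 (0.08 each), Null etoposide 1 or 2 (0.08 each) or DKO etoposide 1, 2 or 3 (0.10, 0.09 and 0.07), and Zfp687 missed it without DKO etoposide 2 (0.08). With a filter of 1 mean CPM Zfp281 missed it too, with 0.09. Zfp217 was lower by 0.59 on the log2 scale.

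The list for RNA binding, ribosomes and the spindle held 10 members, among them Zfp36 and also Zfp91, described above as a ubiquitin ligase gene. Of these, 3 rose and 7 fell in Null MEFs and 4 rose and 5 fell in DKO MEFs, and 1, Zfp91, fell by 2-fold or more in Null MEFs. The counts were 3 and 4, and 6 and 3, with library size alone. Without Null control 3, Null etoposide 2 or a filter the 3 rises became 1, since Zfp318 (0.13, 0.12 and 0.13) and Zfp830 (0.10, 0.14 and 0.14) missed the threshold. Zfp207 stood at 275, 270 and 267 CPM in Null control, 235, 254 and 239 in Null etoposide, 228, 226 and 229 in DKO control, and 256, 246 and 264 in DKO etoposide. Its controls were above the etoposide libraries in Null MEFs and below them in DKO MEFs, with changes of -0.16 ± 0.04 and 0.17 ± 0.04, and the former was -0.07 and not past the threshold with a filter of 1 mean CPM and turned to 0.01 with library size alone. Zfp598 changed by -0.22 ± 0.04 and 0.19 ± 0.04, the former -0.06 and not past the threshold with library size alone. Zfp622, a factor of large ribosomal subunit assembly, fell in both genotypes, by 0.31 and 0.48 on the log2 scale. Zfp326, which links splicing to elongation, changed by -0.33 ± 0.07 and -0.39 ± 0.07, the latter -0.12 and not past the threshold with library size alone, and Zfp106 by -0.40 ± 0.03 in Null MEFs. Zfp638 changed by -0.15 ± 0.04 in Null MEFs, which missed the threshold with -0.07 under that filter and turned to 0.01 with library size alone, and Zfp318 rose by 0.40 ± 0.05 in DKO MEFs. The short Zfp830 was higher in DKO than in Null MEFs without etoposide by 0.24 ± 0.07, and by 0.12 and not past the threshold with library size alone.

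Of the 6 mesenchymal factors listed, 3 were members, and of these 1 rose and 2 fell in each genotype. Below the limit, Zfp423 and Zfp503 averaged higher after etoposide in both genotypes, and Zfp467 averaged lower. Zfp516, which promotes brown fat genes, stood at 106, 102 and 106 CPM in Null control, 62.4, 57.1 and 57.4 in Null etoposide, 78.7, 80.2 and 78.9 in DKO control, and 50.5, 48.3 and 48.9 in DKO etoposide. Its 4 groups did not overlap, and it changed by -0.83 ± 0.04 in Null MEFs and -0.69 ± 0.04 in DKO MEFs. Zfp521 fell with it, while Zfp703 rose by 0.54 ± 0.10 and 0.47 ± 0.11, the latter 0.28 without DKO etoposide 2 and 0.75 with library size alone. The fibroblast markers fell too, with 9 of 10 lower in each genotype after etoposide, and their part in these changes was not tested.

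Of the 8 KRAB factors listed for known targets, the 4 that were members went different ways. In Null MEFs 1 was higher and 2 lower, and in DKO MEFs 1 and 1, or 2 and 1 in each with library size alone. Those below the limit are given in the closing section. Zfp445, which maintains imprints together with Zfp57, stood at 77.9, 83.5 and 77.8 CPM in Null control, 103, 101 and 91.0 in Null etoposide, 102, 103 and 102 in DKO control, and 136, 145 and 143 in DKO etoposide. It was lowest in Null control and highest in DKO etoposide, and it rose by 0.31 ± 0.05 and 0.46 ± 0.04 with etoposide. Zfp57, by contrast, differed mainly between the 2 lines. Its change of -0.17 in Null MEFs missed the threshold with DESeq2 size factors (-0.13), with a filter of 1 mean CPM (-0.09), with library size alone (-0.01) and without Null etoposide 3 (-0.15). Zfp809, which silences proviral DNA, passed the threshold after etoposide in neither genotype, but did so with 0.26 and 0.38 under library size alone and with 0.18 and 0.14 under the 1 CPM filter. It was higher in DKO MEFs by 0.37 ± 0.06 without etoposide and 0.38 ± 0.06 after it. Of the neurotrophin receptor partners, Zfp110 changed by -0.20 ± 0.04 in Null MEFs, or -0.03 and not past the threshold with library size alone, and -0.47 ± 0.04 in DKO MEFs, while Zfp369 rose by 0.54 ± 0.06 and 0.25 ± 0.06. Zfp191, a SCAN factor now named Zfp24, changed by -0.43 ± 0.04 in Null MEFs.

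The proteins through which KRAB factors silence DNA were followed as a list of 32 gene symbols, of which 31 were tested. The symbol without a row, Tasor, names the same gene as Fam208a, which was tested. After etoposide 4 or 12.9% rose and 24 or 77.4% fell in Null MEFs, against 30.9% and 54% of the other genes with a mean raw count of at least 1000. The 4 rises became 2 without Null control 3 or without Null etoposide 1 or 2, and 1 with no filter. In DKO MEFs 7 or 22.6% rose and 20 or 64.5% fell, against 36.6% and 45.2%, and with library size alone the split turned to 14 and 8. Trim28, the corepressor bound by KRAB domains, stood at 460, 442 and 482 CPM in Null control, 357, 359 and 392 in Null etoposide, 383, 392 and 361 in DKO control, and 361, 360 and 385 in DKO etoposide. Its Null control libraries were above all others, and it changed by -0.32 ± 0.04 in Null MEFs and -0.04 ± 0.04 in DKO MEFs, the latter 0.24 with library size alone. Setdb1 changed by -0.14 ± 0.03 in Null MEFs, which turned to 0.03 with library size alone, and by 0.24 ± 0.03 in DKO MEFs. The remodellers Chd3 and Chd4 changed by -1.31 ± 0.03 and -1.11 ± 0.03 in Null MEFs, and the heterochromatin protein gene Cbx5 by -0.83 ± 0.04. The interaction was above 0 for 20 of the 31 and below 0 for 2, against 40.5% and 28.8% of those other genes, or 17 and 4 with DESeq2 size factors.

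Numbered Zfp genes below the limit, 161 in all and 141 tested, were counted too. After etoposide 75 or 53.2% rose and 25 or 17.7% fell in Null MEFs, against 57.9% and 14.3% of 6284 other tested genes below the limit. In DKO MEFs 76 or 53.9% rose and 18 or 12.8% fell, against 53.2% and 12.8%. With library size alone the splits were 82 and 16 in Null MEFs and 105 and 6 in DKO MEFs. The medians were 0.36 and 0.38. Their count level is lower by choice, and members and these genes were not compared by a test. The related Zbtb genes, of which 39 were tested, had 14 or 35.9% higher and 17 or 43.6% lower in Null MEFs, which turned to 18 and 14 with library size alone, and the 19 Zkscan and Zscan genes tested had 11 or 57.9% higher and 2 or 10.5% lower, against 42.3% and 37.2% of all genes tested.

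Promoters were read for the motif CACGTG, the letters that TFEB and TFE3 are known to bind, in a RefSeq table of GRCm38.p6 with 300 bases per promoter, 250 before and 50 after the start. It held 140 of the 176 members. CACGTG, which reads the same on both strands, was found in 15 members or 10.7%, and in 8.09% of 27025 genes. Those genes were not limited by their level, as the members were. Zfp942 and Zfp943 start on opposite strands and share the same match, as do Zfp944 and Zfp758, so these matches are counted for both genes of a pair. Among members higher in DKO MEFs without etoposide 7 of 68 held it, and among those lower 3 of 30. After etoposide it was held by 9 of 72 of the higher members and 1 of 30 of the lower ones. The p53 consensus, searched on both strands, was found in 0 members and in 0.074% of all genes. A match is a description and not a site, and no match says only that these letters are not in this window.

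Shown first is the promoter of Zfp365, the member that rose most, on chr10:67912613-67912912, minus strand. Next is that of Zfp292, the only member with 2 matches, on chr4:34882899-34883198, minus strand. Last is that of Zfp207, a highly expressed member, on chr11:80383029-80383328, plus strand. The calls of Zfp207 were opposite in the genotypes, but not with a filter of 1 mean CPM or with library size alone. The sequences are written 5′ to 3′ from RefSeq on GRCm38.p6, with CACGTG in capitals.
Zfp365: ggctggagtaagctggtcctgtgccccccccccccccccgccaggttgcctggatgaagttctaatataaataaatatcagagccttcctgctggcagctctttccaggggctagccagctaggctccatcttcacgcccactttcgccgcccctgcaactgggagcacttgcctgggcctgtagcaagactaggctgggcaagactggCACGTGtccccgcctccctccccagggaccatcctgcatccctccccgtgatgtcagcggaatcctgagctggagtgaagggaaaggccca
Zfp292: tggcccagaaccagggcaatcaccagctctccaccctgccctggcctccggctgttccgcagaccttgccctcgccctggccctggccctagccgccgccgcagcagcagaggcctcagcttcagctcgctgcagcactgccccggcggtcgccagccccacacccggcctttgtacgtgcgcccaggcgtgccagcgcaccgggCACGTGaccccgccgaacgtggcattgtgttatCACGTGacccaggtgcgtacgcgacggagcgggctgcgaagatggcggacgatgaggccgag
Zfp207: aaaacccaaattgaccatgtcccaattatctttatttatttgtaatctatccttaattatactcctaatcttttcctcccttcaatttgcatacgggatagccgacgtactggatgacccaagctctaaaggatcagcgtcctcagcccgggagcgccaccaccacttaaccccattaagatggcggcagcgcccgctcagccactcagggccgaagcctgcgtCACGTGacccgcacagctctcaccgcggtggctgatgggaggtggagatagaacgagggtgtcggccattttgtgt

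Of the 176 members, 173 or 98.3% passed the threshold in at least 1 of the 5 comparisons, against 99.1% of the other genes with a mean raw count of at least 1000 and 96.7% of all genes tested. In all 5 it was passed by 35 members or 19.9%, against 34.6% and 24%, among them Zfp36, Zfp281, Zfp365, Zfp407, Zfp462, Zfp651 and Zfp827. Zfp65, Zfp113 and Zfp961 passed it in none.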

How the data were processed

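The authors sequenced stranded total RNA libraries depleted of rRNA as read pairs, and the deposited table holds raw counts per gene in 12 libraries, with 5 HTSeq summary lines at its end. According to the authors, pairs were aligned with HISAT2 and counted with HTSeq on GENCODE genes, while the processing notes name HISAT2, featureCounts and mm10; versions and the strand setting are not stated. Summary lines were left out of the counts on genes.

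All genes were fitted together with edgeR 4.0.16 in R 4.3.3: filterByExpr on the 4 groups, TMM factors, and quasi-likelihood tests of 5 contrasts in 1 model of 12 libraries, with Benjamini-Hochberg adjustment over the 15220 genes tested and a threshold of 0.05. Values after ± are standard errors of the log2 fold change. Alternatives were DESeq2 1.42.0, limma-trend 3.58.1, other scalings and filters, a replicate block, each library left out, and member limits of 500 and 2000. The legacy edgeR fit was added after seeing the data.

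Named are, per comparison, the 5 members with the highest and the 5 with the lowest log2 fold change among those past the threshold whose groups did not overlap, the members of 6 role lists, and the 3 highest per length. Zfp9, Zfp593, Zfp609, Zfp637 and Zfp943 were named after their values were seen. Members and lists were chosen with earlier results of these data known.

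Gene spans, strands and protein patterns come from GENCODE M21 on GRCm38, since no table of mouse proteins was at hand, and promoters from RefSeq on GRCm38.p6. A C2H2 finger was counted as C, 2 to 4 residues, C, 12 residues, H, 3 to 5 residues, H.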

Additional observations from a re-analysis of the deposited data

Results flagged for a closer look

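A difference between the genotypes in the response to etoposide marked 41 of 55 named members, by the interaction in edgeR's test at an adjusted p under 0.05. The same held for 106 or 60.2% of all 176 members, 69.2% of the other genes with a mean raw count of at least 1000 and 54% of all genes tested. The 55 are the members named for a highest or lowest change in a comparison or from a role list, and 10 of them were named for the highest or lowest interactions. Members named for other reasons are not among the 55. Zfp9, Zfp593 and Zfp637 are such members, and the interaction passed the threshold for each of them. The values are the log2 fold change in DKO MEFs less that in Null MEFs, on 3 libraries a group, and no cause was tested.

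The interaction was below 0 for 18 of these 41 members, and the order given is among them. The lowest were Zfp651 (-2.08), Zfp52 (-1.48), Zfp36 (-1.33), Zfp281 (-1.17), Zfp248 (-1.11) and Zfp692 (-1.10). The next were Zfp219 (-1.06), Zfp688 (-0.96), Zfp827 (-0.76), Zfp521 (-0.66), Zfp365 (-0.46) and Zfp568 (-0.46). The remaining values below 0 were those of Zfp422 (-0.44), Zfp369 (-0.29), Zfp110 (-0.28), Zfp275 (-0.18), Zfp622 (-0.17) and Zfp644 (-0.15).

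The interaction was above 0 for 23 of the 41 members, again in their order. The highest were Zfp462 (1.47), Zfp428 (1.04), Zfp407 (0.63), Zfp945 (0.62), Zfp131 (0.62) and Zfp91 (0.53). The next were Zfp704 (0.48), Zfp335 (0.47), Zfp598 (0.41), Zfp316 (0.34), Zfp346 (0.34) and Zfp191 (0.34), followed by Zfp207 (0.32), Zfp384 (0.32), Zfp106 (0.32), Zfp143 (0.31), Zfp652 (0.31) and Zfp148 (0.30). The remaining values above 0 were those of Zfp318 (0.25), Zfp638 (0.20), Zfp445 (0.16), Zfp687 (0.15) and Zfp516 (0.14).

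For 6 of the 41 the mark ended when a single library was left out. The number of the replicate left out is given, with the value without it in brackets. These were Zfp318 without DKO control 1 and 2 (0.20 and 0.22) and DKO etoposide 2 (0.19), and Zfp445 without Null control 2 (0.13), DKO control 1, 2 and 3 (0.14, 0.15 and 0.16), Null etoposide 3 (0.11) and DKO etoposide 2 and 3 (0.13 and 0.14). Zfp516 lost it without Null control 1 and 3 (0.13 and 0.13), DKO control 1, 2 and 3 (0.12, 0.13 and 0.14), Null etoposide 2 and 3 (0.11 and 0.12) and DKO etoposide 1, 2 and 3 (0.11, 0.14 and 0.14), and Zfp622 without Null control 2 (-0.13), DKO control 1 and 2 (-0.16 and -0.16), Null etoposide 1 and 3 (-0.17 and -0.16) and DKO etoposide 1 (-0.16). Zfp644 lost it without Null control 2 and 3 (-0.16 and -0.10), DKO control 1 and 3 (-0.15 and -0.13), Null etoposide 1, 2 and 3 (-0.14, -0.17 and -0.14) and DKO etoposide 2 (-0.13), and Zfp687 without Null control 3 (0.12), DKO control 1, 2 and 3 (0.13, 0.14 and 0.15), Null etoposide 2 and 3 (0.14 and 0.14) and DKO etoposide 1 and 2 (0.14 and 0.11). By library size alone the mark also ended for Zfp369 (-0.19), Zfp622 (-0.06) and Zfp644 (-0.04). With DESeq2 size factors it ended for Zfp318 (0.18), Zfp445 (0.09), Zfp516 (0.08), Zfp638 (0.14) and Zfp687 (0.09). For Zfp445 and Zfp516 it also ended with no filter and with a filter of a mean of at least 1 CPM. Of 20 settings, the mark was kept in 6 for Zfp516, 8 for Zfp687, 9 for Zfp445 and 10 for Zfp644. It was kept in 13 for Zfp622, 15 for Zfp318, and 19 each for Zfp369 and Zfp638.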

How the results depend on the processing

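The counts and medians of members depended on the scaling, on the filter and on the member limit. For etoposide in Null MEFs, library size alone gave 88 higher, 49 lower and a median of 0.12, against 58, 83 and -0.05, and in DKO MEFs 111 higher, 34 lower and a median of 0.22. For DKO against Null MEFs without etoposide it gave 68 lower and a median of -0.00940, and for the interaction a median of 0.10. Of the 219 results of named members checked below, 8 that passed the threshold in edgeR's test turned with library size alone. After etoposide in Null MEFs these were Zfp532 (0.00458), Zfp207 (0.0119) and Zfp638 (0.0142). In DKO MEFs they were Zfp451 (0.0142), Zfp335 (0.0566), Zfp532 (0.11), Zfp106 (0.20) and Zfp191 (0.18). Values near 0 that fell short of the threshold, such as that of Zfp943 in Null MEFs, turned as well. With DESeq2 the medians were -0.00190 for etoposide in Null MEFs, 0.0637 for DKO against Null MEFs after etoposide and -0.0644 for the interaction, and with DESeq2 size factors in edgeR they were -0.00154, 0.0627 and -0.0650. Without a filter the median was -0.0745 for etoposide in Null MEFs and -0.0888 in DKO MEFs. With a filter of a mean of at least 1 CPM the medians were 0.0390 and -0.0137 for etoposide in Null and DKO MEFs, 0.10 and 0.0582 for DKO against Null MEFs without and after etoposide, and -0.0525 for the interaction. With a member limit of 500 the medians after etoposide were -0.00503 in Null MEFs and 0.0268 in DKO MEFs. With a limit of 2000, which left 98 members, 27 were higher and 55 lower after etoposide in Null MEFs and 35 higher in DKO MEFs, 44 were higher and 24 lower in DKO against Null MEFs without etoposide and 56 and 22 after it, and the interaction was above 0 for 35 and below 0 for 29. The medians at that limit were -0.15, -0.11 and 0.0925 for the first 3 comparisons and 0.0336 for the interaction. With each library left out in turn, the median ran from -0.0745 to -0.0408 for etoposide in Null MEFs, from -0.0852 to -0.0357 in DKO MEFs and from -0.0280 to 0.0213 for the interaction. The cause of these shifts was not tested. A replicate block gave 57 higher and 83 lower members for etoposide in Null MEFs. Correlations between libraries of the same number reached 0.0429 at most, yet 9 of 12 libraries were closest to another of their own number. Whether the replicate numbers pair the libraries cannot be told from these values. Of 4380 checks on 219 results of named members, 4131 kept their direction and side of the threshold, 176 fell short of it, 65 newly passed it and 8 reversed. Zfp462 rested on about 1 CPM in DKO MEFs, and the part of depth in the other results was not tested.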

Other observations

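Of the numbered Zfp genes of the role lists, 8 lay below the limit that chose members. Zfp503, a corepressor related to Zfp703, stood at 1.86, 2.66 and 3.06 CPM in Null control, 12.2, 11.8 and 14.3 in Null etoposide, 4.87, 4.77 and 4.01 in DKO control, and 8.24, 8.44 and 8.09 in DKO etoposide. It rose with etoposide in both genotypes without overlap, more in Null MEFs. Zfp30 stood at 1.47, 1.55 and 1.36 CPM in Null control, 2.71, 2.64 and 2.44 in Null etoposide, 2.63, 2.82 and 2.72 in DKO control, and 4.55, 4.86 and 5.11 in DKO etoposide, and was higher after etoposide in both genotypes and higher in DKO than in Null MEFs. Zfp708 went the other way, at 3.92, 4.52 and 3.95 CPM in Null control, 3.17, 2.58 and 2.80 in Null etoposide, 4.87, 3.80 and 4.75 in DKO control, and 3.78, 2.85 and 3.56 in DKO etoposide, where the etoposide libraries were below the controls in each genotype. Zfp467 also fell, at 0.320, 0.507 and 0.463 CPM in Null control, 0.256, 0.291 and 0.306 in Null etoposide, 0.526, 0.228 and 0.285 in DKO control, and 0.121, 0.109 and 0.129 in DKO etoposide, again without overlap within a genotype. Mean CPM in the order Null control, Null etoposide, DKO control and DKO etoposide was, for Zfp420 5.01, 4.93, 2.96 and 5.77, for Zfp423 0.0812, 2.34, 0 and 0.792, for Zfp69 1.5, 4.19, 1.48 and 1.93 and for Zfp932 6.39, 8.93, 7.84 and 10.3.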
